A study of Homo sapiens with 9 samples.

Results

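The genes described here are 10 regulators of apoptosis, most of them of the BCL2 family: MCL1, BCL2L1, BCL2A1, BAK1, BID, BCL2L11, PMAIP1, BAD, CFLAR and APAF1. They were picked by gene symbol from the platform annotation, and each had 1 row in the value table, so the 10 genes are 10 of 14884 named genes. They were followed in THP-1, a line grown from the leukaemic monocytes of a patient, after the phorbol ester PMA had turned the cells into M0 macrophage-like cells. The cells of all groups were grown in serum-containing RPMI medium and had the same PMA step. They then received 100 nM osimertinib, which blocks the kinase of mutant EGFR, 0.5 µM cisplatin, a platinum compound that forms adducts and crosslinks on DNA, or vehicle, for 16 h. Each group had 3 replicates that the labels call biological, each on 1 Affymetrix Human Gene 2.0 ST array. Nothing says that they came from separate cultures, so p-values measure the spread between these samples. All 3 groups come from 1 cancer-derived line at 1 dose of each drug and 1 time.

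Apoptosis through mitochondria is set by the balance between proteins of the BCL2 family. Guardians such as MCL1 and BCL-XL hold the pore-forming effectors BAK and BAX in check, and BH3-only proteins such as BIM, NOXA, BAD and cleaved BID release or directly engage those effectors. Once the outer mitochondrial membrane is open, cytochrome c joins APAF1 to form the apoptosome, which activates caspases. Death receptors use another route through FADD and caspase 8, which c-FLIP, the product of CFLAR, restrains. MCL1 is a short-lived protein, so its amount follows its synthesis closely. Much of this control acts on the proteins, which arrays do not measure.

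Expression levels are given as log2 values, so a difference of 1 is a doubling. The 7442 genes whose mean level lay at or above the median of all named genes, 4.28, were tested with limma, a linear model that shares information on the spread between genes, and p-values were adjusted by the Benjamini-Hochberg method over those 7442 genes. A gene is said to have risen or fallen where this adjusted p was under 0.05. All 10 genes lay above the limit in the mean of the 9 arrays. The treated arrays stood apart from the vehicle arrays on the first principal component of the tested genes, at 7.7 to 12.25 against -21.17 to -19.57. Of 10 macrophage markers 7 were named and 5 lay above the limit, with CD68 highest at 9.71, while LYZ and CD163 (2.43) lay below it. The only named T cell marker, CD2, stood at 3.07 and the only named B cell marker, PAX5, at 4.49. Of 4 named epithelial markers KRT8 and the brighter row of KRT18 (7.49) lay above the limit. A dimmer row of KRT18, at 3.16, lay below it, and which row measures KRT18 was not tested.

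MCL1, BAK1 and BID rose with each drug, and CFLAR fell with cisplatin. The rises were small, between 1.19-fold and 1.34-fold. With osimertinib 3 of the 10 genes rose and 0 fell, where limma called 30.6% of all tested genes, and with cisplatin 3 rose and 1 fell, where it called 31.0%. The count of the 10 genes is thus near that of the other genes in the osimertinib comparison and 1 gene above it with cisplatin. MCL1, BAK1 and BID are the 3 members called in both comparisons with vehicle in 1 direction, which held for 23.4% of tested genes. These comparisons use the same 3 vehicle arrays. The F test over the 3 groups called 4 of the 10, MCL1, BAK1, BID and CFLAR, and 32.3% of all tested genes. With osimertinib 4 genes had all arrays above those of vehicle and 1 had all below, where 24.6% and 19.5% of tested genes did. With cisplatin 5 had all arrays above vehicle and 1 all below, where 22.5% and 19.8% did. Between the drugs 0 genes had all osimertinib arrays above those of cisplatin and 1, BAK1, all below, where 7.44% and 6.88% did. The median difference from vehicle over the 10 genes was 0.23 with osimertinib and 0.19 with cisplatin, against 0.037 and 0.032 over all tested genes. In these bulk samples a change in the make-up of the cells and a change of RNA per cell cannot be told apart. Of the 5 tested macrophage markers 2 rose with each drug, where 16.9% of all tested genes rose with osimertinib and 16.5% with cisplatin. CD68 rose by 0.30 with osimertinib and 0.51 with cisplatin, and CSF1R by 0.29 and 0.50. CD14, SPI1 and TYROBP were not called. By limma the brighter row of KRT18 fell by 0.30 with osimertinib (adjusted p = 0.0312) and 0.35 with cisplatin (adjusted p = 0.0154). With no level limit the call of KRT18 with osimertinib was lost (adjusted p = 0.0678), and its dimmer row was not called with either drug (adjusted p = 0.994 and 0.978). The part of these genes in the result was not tested.

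**Figure D1:**
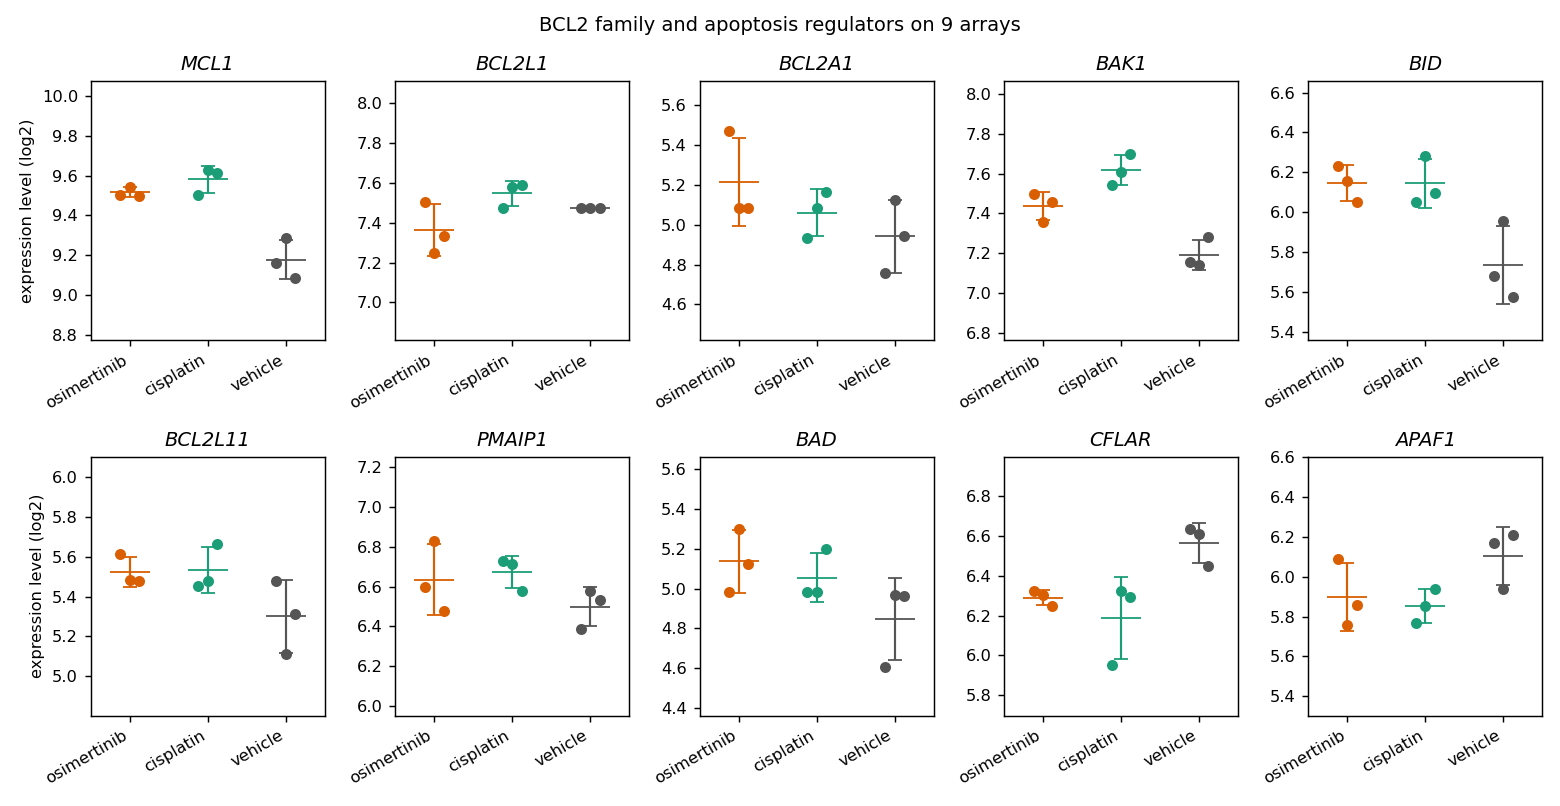
Expression level (log2) of the 10 genes on each of the 9 arrays, with groups along the horizontal axis and an equal range of levels in every panel. Points are arrays, the wide bar is the group mean and the error bar its SD (n = 3). The treated arrays of MCL1, BAK1, BID and BAD lie above all vehicle arrays, and those of CFLAR below them. The margin of BAD is narrow, and BAD was not called. BCL2L1 has 1 equal value on the 3 vehicle arrays.

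Among the guardians, MCL1 (Entrez gene 4170) showed the clearest difference of the 10 genes. Its level was 9.50, 9.55 and 9.50 with osimertinib, 9.50, 9.63 and 9.61 with cisplatin, and 9.16, 9.29 and 9.09 with vehicle. All 6 treated arrays were higher than every vehicle array, and the osimertinib arrays lay closest together. Relative to vehicle, MCL1 was 1.26-fold higher with osimertinib (log2 difference 0.34, SE 0.056, adjusted p = 0.000449 by limma) and 1.32-fold higher with cisplatin (0.40, SE 0.056, adjusted p = 0.000122). Osimertinib minus cisplatin was -0.066 with a 95% interval of -0.19 to 0.054, and the arrays of the drugs overlapped (adjusted p = 0.737). Both calls against vehicle held in 18 of 18 alternative analyses.

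BCL2L1 (Entrez gene 598), which encodes the guardian BCL-XL, was at 7.50, 7.25 and 7.34 with osimertinib, at 7.48, 7.58 and 7.59 with cisplatin, and at 7.476 on all 3 vehicle arrays. The equal vehicle values, which recur on cisplatin replicate 1, leave the spread of the vehicle group unknown. The levels overlapped between each drug and vehicle, and neither comparison with vehicle passed the test: the difference was -0.11 with osimertinib (95% interval -0.27 to 0.047) and 0.072 with cisplatin (-0.088 to 0.23). Osimertinib minus cisplatin was -0.19 (95% interval -0.35 to -0.026), which did not pass the adjustment over all tested genes (adjusted p = 0.32) and 1 osimertinib array lay within the cisplatin range.

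BCL2A1 (Entrez gene 597) encodes a guardian that NF-kB induces in myeloid cells. It was at 5.47, 5.09 and 5.09 with osimertinib, 4.93, 5.09 and 5.16 with cisplatin, and 4.76, 5.12 and 4.95 with vehicle. Only osimertinib replicate 1 lay above the range of the other arrays. The difference from vehicle was 0.27 with osimertinib (adjusted p = 0.145) and 0.12 with cisplatin (adjusted p = 0.537), neither past the threshold. The difference with osimertinib passed it with a further quantile normalization (adjusted p = 0.0385).

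The pore-forming effector BAK1 (Entrez gene 578), which MCL1 and BCL-XL restrain, was at 7.50, 7.36 and 7.46 with osimertinib, 7.54, 7.61 and 7.70 with cisplatin, and 7.16, 7.14 and 7.28 with vehicle. The 3 groups did not overlap: every cisplatin array was above every osimertinib array, and all of these were above the vehicle arrays. Non-overlap in either direction was seen in 44.1% of tested genes for osimertinib against vehicle, 42.3% for cisplatin against vehicle and 14.3% for osimertinib against cisplatin. BAK1 rose by 0.25 with osimertinib (1.19-fold, SE 0.072, adjusted p = 0.0192) and by 0.43 with cisplatin (1.34-fold, SE 0.072, adjusted p = 0.000576). The rise with osimertinib lost its call without osimertinib replicate 1 (adjusted p = 0.0686), without osimertinib replicate 3 (0.0569), without vehicle replicate 1 (0.065) and without vehicle replicate 2 (0.0735). Osimertinib minus cisplatin was -0.18 (95% interval -0.34 to -0.025), which was not called over all genes (adjusted p = 0.32).

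BID (Entrez gene 637) encodes the BH3-only protein that caspase 8 cleaves, and so ties death receptors to mitochondria. It was at 6.23, 6.16 and 6.05 with osimertinib, 6.05, 6.28 and 6.10 with cisplatin, and 5.68, 5.95 and 5.57 with vehicle. All treated arrays lay above the vehicle arrays, of which replicate 2 was closest to them. The rise was 0.41 with either drug (1.33-fold, SE 0.11; adjusted p = 0.0125 with osimertinib and 0.013 with cisplatin), and the drugs differed by 0.0017 (95% interval -0.24 to 0.24). Without vehicle replicate 3 BID was no longer called with osimertinib (adjusted p = 0.0615) or with cisplatin (0.0643), and the same held without osimertinib replicate 1 (0.0506) for osimertinib and without cisplatin replicate 2 (0.0584) for cisplatin.

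The windows around the transcription starts are shown for BAK1 and BID, which rose with each drug, and for CFLAR, which fell with cisplatin. MCL1, which also rose, has no window here. The sequences are from RefSeq (GRCh38.p14) and run from 250 bases before to 50 bases after the start, 5′ to 3′ on the strand of the gene. Capitals mark GC boxes (GGGCGG, bound by Sp factors), CCAAT boxes (CCAAT) and NF-kB sites, each searched on both strands. BAK1 lies at chr6:33580227-33580526 on the minus strand, BID at chr22:17774420-17774719 on the minus strand and CFLAR at chr2:201118466-201118765 on the plus strand.
BAK1: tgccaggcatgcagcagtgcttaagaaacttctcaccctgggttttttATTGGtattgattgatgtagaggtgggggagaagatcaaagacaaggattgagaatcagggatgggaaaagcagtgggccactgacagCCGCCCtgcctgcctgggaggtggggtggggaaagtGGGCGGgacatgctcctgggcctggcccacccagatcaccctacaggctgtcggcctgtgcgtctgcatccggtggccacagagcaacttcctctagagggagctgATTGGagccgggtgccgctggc
BID: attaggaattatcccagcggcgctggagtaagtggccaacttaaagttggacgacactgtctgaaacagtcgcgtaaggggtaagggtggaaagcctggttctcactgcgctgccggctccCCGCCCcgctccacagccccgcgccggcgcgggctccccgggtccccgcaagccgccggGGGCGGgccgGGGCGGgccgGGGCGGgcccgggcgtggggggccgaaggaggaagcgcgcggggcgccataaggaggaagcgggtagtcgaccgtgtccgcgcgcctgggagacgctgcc
CFLAR: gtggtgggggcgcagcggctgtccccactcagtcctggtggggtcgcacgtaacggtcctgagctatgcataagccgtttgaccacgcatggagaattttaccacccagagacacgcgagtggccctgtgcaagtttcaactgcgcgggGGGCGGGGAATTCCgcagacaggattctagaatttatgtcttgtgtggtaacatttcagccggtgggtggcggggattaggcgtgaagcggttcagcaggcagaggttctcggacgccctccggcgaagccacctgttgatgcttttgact

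BID has 4 GC boxes and no CCAAT box, in a window of 71.7% G and C with 37 CpG pairs, against a median of 58.7% and 14 over 35116 RefSeq windows. BAK1 has 2 GC boxes and 2 CCAAT boxes but only 7 CpG pairs, and CFLAR has 1 GC box that overlaps an NF-kB site. GC boxes were in the windows of 7 of the 9 genes that had one in the table and in 45.0% of all windows. CCAAT boxes were in 4 of 9 and in 34.6%, and the NF-kB site was in CFLAR alone of the 9 and in 5.91% of all windows. The other motifs with a match were the TATA box TATAAA in BCL2L1 and BCL2A1 (11.5% of all windows), an ETS site CCGGAAG in BCL2L1 (10.3%), a STAT site TTCNNNGAA in BCL2A1 (7.66%), and the core of the antioxidant response element TGACNNNGC in BAD, BCL2L1 and CFLAR (13.3%). An ATF4 composite element TGATGNAA was found in BCL2A1 (3.62%) and the FOXO site GTAAACA in BCL2L11 (3.42%). Letters for a heat shock element (0.49% of all windows), an AP-1 site (TGANTCA, 7.71%), an E box (CACGTG, 7.26%), a cyclic AMP response element (TGACGTCA, 1.85%), a p53 response element (0.0171%) and a serum response element (1.29%) were in none of the 9 windows.

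Of the other BH3-only genes none passed the test. BCL2L11 (Entrez gene 10018) encodes BIM, which binds all guardians, and was at 5.61, 5.48 and 5.48 with osimertinib, 5.46, 5.48 and 5.67 with cisplatin, and 5.48, 5.11 and 5.31 with vehicle. The highest vehicle array lay within the range of the treated ones, and the differences of 0.22 (adjusted p = 0.155 with osimertinib) and 0.23 (adjusted p = 0.138 with cisplatin) were not called by limma. PMAIP1 (Entrez gene 5366), which encodes NOXA, a p53 target that binds MCL1, was at 6.60, 6.83 and 6.48 with osimertinib, 6.73, 6.72 and 6.58 with cisplatin, and 6.39, 6.58 and 6.53 with vehicle. The osimertinib arrays overlapped those of vehicle, and the lowest cisplatin array (6.578) lay only just above the highest vehicle array (6.576). PMAIP1 differed from vehicle by 0.14 with osimertinib (adjusted p = 0.328) and by 0.17 with cisplatin (adjusted p = 0.205). BAD (Entrez gene 572), which growth factor signalling keeps inactive by phosphorylation, was at 4.98, 5.30 and 5.12 with osimertinib, 4.98, 4.98 and 5.20 with cisplatin, and 4.61, 4.97 and 4.96 with vehicle. Every treated array was above every vehicle array, but by a small margin from vehicle replicates 2 and 3. Its differences of 0.29 (adjusted p = 0.108 with osimertinib) and 0.21 (adjusted p = 0.245 with cisplatin) did not pass the test. With a further quantile normalization BCL2L11 was called with osimertinib (adjusted p = 0.0358) and cisplatin (0.0284), PMAIP1 with cisplatin (0.0477) and BAD with osimertinib (0.033). That setting also raised the median of all tested genes.

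CFLAR (Entrez gene 8837), whose product keeps caspase 8 from being activated at death receptors, was at 6.32, 6.30 and 6.25 with osimertinib, 5.95, 6.32 and 6.29 with cisplatin, and 6.64, 6.61 and 6.45 with vehicle. All treated arrays lay below the vehicle arrays, and cisplatin replicate 1 was the lowest of all. CFLAR fell by 0.38 with cisplatin (1.30-fold lower, SE 0.10, adjusted p = 0.0141), a call that ended without vehicle replicate 1 (adjusted p = 0.055) and without vehicle replicate 2 (0.0505). With osimertinib the difference was -0.27 (SE 0.10, adjusted p = 0.0619), which did not pass the threshold. It passed without cisplatin replicate 1 (adjusted p = 0.0134), with median centring (0.0099), with a stricter level limit (0.041) and with the 6 arrays of these groups alone (0.0236). Osimertinib minus cisplatin was 0.10 (95% interval -0.12 to 0.33), so these data do not show that CFLAR differed between the drugs.

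APAF1 (Entrez gene 317), the scaffold of the apoptosome, was at 6.09, 5.76 and 5.86 with osimertinib, 5.77, 5.85 and 5.94 with cisplatin, and 6.17, 5.94 and 6.21 with vehicle. Its highest cisplatin value and its lowest vehicle value were the same, 5.9375, so the groups met without separating. The differences of -0.20 with osimertinib (adjusted p = 0.184) and -0.25 with cisplatin (adjusted p = 0.102) were not called, although the 95% interval with cisplatin, -0.49 to -0.015, lay below 0 before adjustment over all tested genes. With median centring the difference with cisplatin was called (adjusted p = 0.0379).

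**Figure D2:**
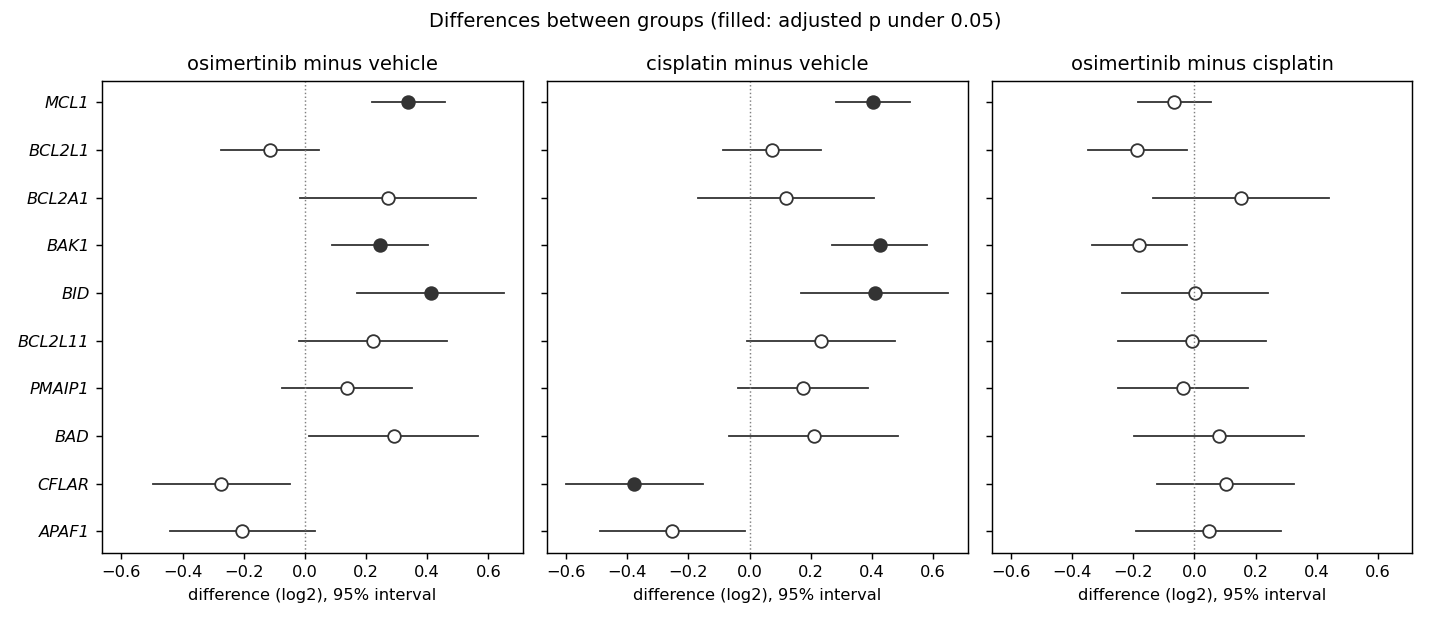
Differences of log2 level between the groups for the 10 genes, with osimertinib minus vehicle on the left, cisplatin minus vehicle in the middle and osimertinib minus cisplatin on the right. Circles are the limma estimates, lines their 95% intervals before adjustment over genes, and filled circles passed an adjusted p of 0.05; 3 genes are filled for osimertinib, 4 for cisplatin and 0 between the drugs.

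Between the drugs 0 of the 10 genes were called, where limma called 1.75% of all tested genes, 0.766% higher and 0.981% lower with osimertinib. Of the 10, 2 had an unadjusted limma p under 0.05, BAK1 and BCL2L1, each with an adjusted p of 0.32. The differences between the drugs ran from -0.19 for BCL2L1 to 0.15 for BCL2A1, and the widest interval, that of BCL2A1, reached from -0.13 to 0.44. With 3 arrays a group the intervals still allow differences of that size.

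**Figure D3:**
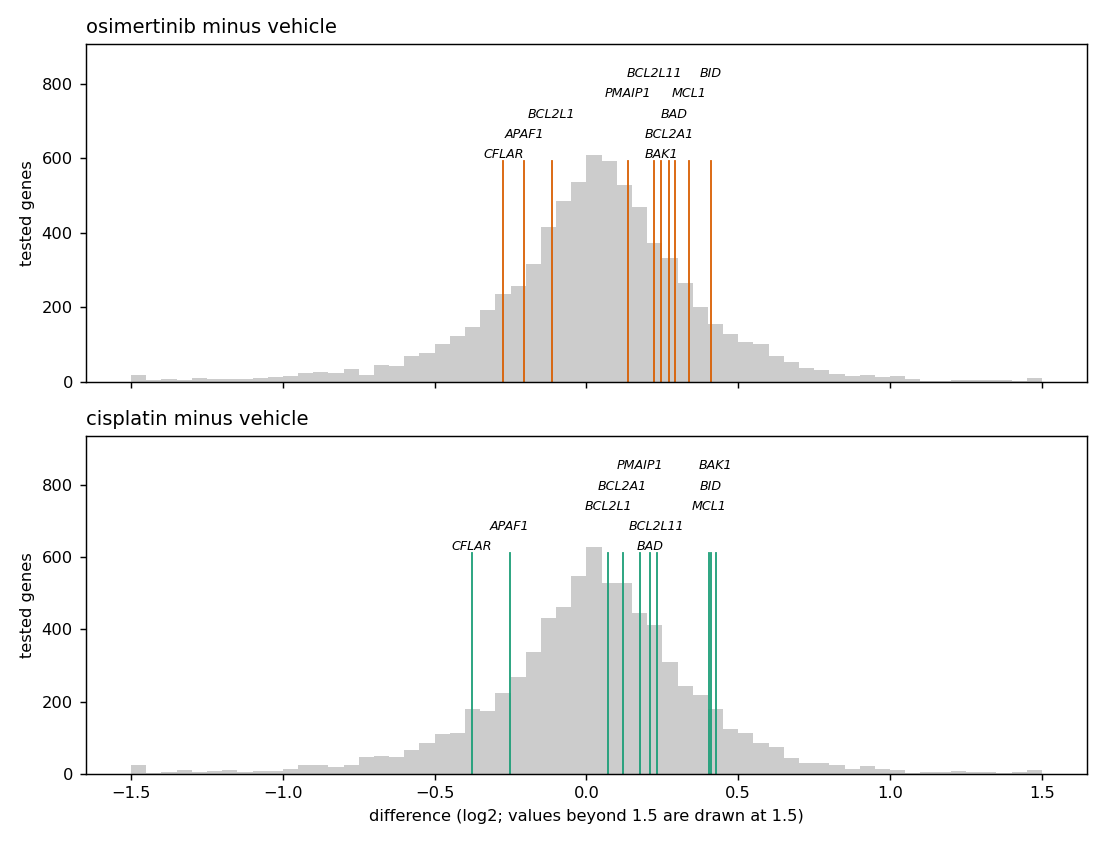
Number of tested genes (grey) by log2 difference from vehicle, in bins of 0.05, for osimertinib (upper) and cisplatin (lower); the coloured lines are the 10 genes. All 10 lie between -0.38 and 0.43, within the bulk of the 7442 tested genes.

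Among other genes of the BCL2 family, BCL2, BMF, BNIP3 and BNIP3L rose with osimertinib. Of 14 listed, 12 were named and 8 tested, and 4 of these 8 rose with osimertinib and 0 fell, where 16.9% of all tested genes rose. The 4 were BMF (0.29, adjusted p = 0.0243), a BH3-only gene, the mitochondrial receptors BNIP3L (0.31, adjusted p = 0.0221) and BNIP3 (0.35, adjusted p = 0.0462), and the guardian BCL2 itself (0.25, adjusted p = 0.0317). With cisplatin 0 of the 8 were called by limma, where 16.5% of all tested genes rose and 14.5% fell, and 3 (BOK, BNIP3 and BNIP3L) had an unadjusted p under 0.05. The differences of the 4 genes there were 0.070 for BMF, 0.20 for BNIP3L, 0.34 for BNIP3 and -0.027 for BCL2. The median over the 8 was 0.21 with osimertinib and 0.16 with cisplatin, against 0.037 and 0.032 over all tested genes. All 4 calls ended without vehicle replicate 3 (adjusted p = 0.0777 to 0.105). That of BCL2 also ended without vehicle replicate 1 (0.0674) or 2 (0.0516) or osimertinib replicate 2 (0.0599) or 3 (0.126), and that of BMF without vehicle replicate 1 (0.0633) or osimertinib replicate 2 (0.0903) or 3 (0.0526). That of BNIP3 ended without any array other than vehicle replicate 1 (0.053 to 0.195), and that of BNIP3L without osimertinib replicate 1 (0.087) or vehicle replicate 1 (0.0525). Other settings ended calls too: median centring for BCL2 (0.0556) and BNIP3 (0.0692), no level limit for BCL2 (0.0518), BNIP3 (0.0831) and BNIP3L (0.0518), the replicate number as a block for BCL2 (0.0581), the 6 arrays alone for BNIP3 (0.0748), and no trend or robust fitting for BNIP3L (0.0522). A dimmer row of BMF stood at 0.28 with osimertinib and was not called (adjusted p = 0.284), and the mean over both rows ended the call of BMF (0.0742). A further quantile normalization called 4 of the 8 with cisplatin, all higher, but not the same 4 genes. BNIP3 and BNIP3L were among them, and BCL2 and BMF were not. The median of all tested genes also rose in that setting. None of the 8 differed between the drugs in the test over all genes. BCL2 came nearest, 6.75, 6.78 and 6.91 with osimertinib against 6.55, 6.61 and 6.45 with cisplatin (0.28, adjusted p = 0.133). BAX, the effector that acts beside BAK, was at 0.17 with osimertinib (adjusted p = 0.288) and 0.23 with cisplatin (adjusted p = 0.153), and BBC3, which encodes the p53 target PUMA, at 0.065 (adjusted p = 0.677) and 0.12 (adjusted p = 0.413).

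The inhibitors of apoptosis bind caspases or mark proteins for degradation. Of 9 listed with their antagonists 6 were tested, and BIRC6, a very large ubiquitin ligase that blocks caspases, fell with each drug. Its level was 8.04, 7.95 and 8.04 with osimertinib, 7.66, 7.99 and 7.95 with cisplatin, and 8.31, 8.32 and 8.32 with vehicle, with no overlap between treated and vehicle arrays. BIRC6 fell by 0.31 with osimertinib (adjusted p = 0.00918) and by 0.45 with cisplatin (adjusted p = 0.000744), and both calls held in 18 of 18 alternatives. BIRC5, the mitotic protein survivin, fell by 0.38 with osimertinib (adjusted p = 0.036), a call that ended without osimertinib replicate 2 (0.147) or 3 (0.0874) and without vehicle replicate 2 (0.148) or 3 (0.0897). It also ended with quantile normalization (0.0577), with no level limit (0.0717), with the replicate number as a block (0.0563) and with the 6 arrays alone (0.0508), and held in 8 of 17 alternatives. With cisplatin BIRC5 was at -0.20 (adjusted p = 0.257). XIAP, BIRC2, BIRC7 and the antagonist HTRA2 were not called in either comparison, and the median of the 6 genes was -0.13 with osimertinib and -0.068 with cisplatin. Of the 6 genes 2 thus fell with osimertinib and 1 with cisplatin, where 13.7% and 14.5% of all tested genes fell.

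Of 13 death ligands, receptors and adaptors 3 adaptors were named, all of them tested. FADD, which couples death receptors to caspase 8, was at 5.86, 5.55 and 5.56 with osimertinib, 5.10, 5.64 and 5.49 with cisplatin, and 5.05, 5.12 and 4.88 with vehicle. Its osimertinib arrays lay above all vehicle arrays, whereas 1 cisplatin array did not. FADD rose by 0.64 with osimertinib (adjusted p = 0.00376) and by 0.39 with cisplatin (adjusted p = 0.0498). The call with cisplatin was lost in 13 of 17 alternatives, among them leaving out any vehicle array (adjusted p = 0.0633 to 0.168), cisplatin replicate 2 (0.193) or 3 (0.14), or osimertinib replicate 2 (0.0581) or 3 (0.0598). A dimmer row of FADD stood at 0.036 with osimertinib and 0.15 with cisplatin, neither called. TRADD and CRADD were not called, so 1 of 3 rose with each drug, where 16.9% and 16.5% of all tested genes did. The 8 listed caspase and cytochrome c genes were not analysed here, since 0 of them were named.

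Of 4 tested nuclease and channel genes 3 rose with osimertinib and 2 with cisplatin, where 16.9% and 16.5% of all tested genes rose, and 0 fell. ENDOG, a mitochondrial nuclease, was at 5.79, 6.16 and 5.80 with osimertinib, 5.99, 5.72 and 5.75 with cisplatin, and 5.16, 5.12 and 5.37 with vehicle. It rose by 0.70 with osimertinib (adjusted p = 0.000795) and by 0.60 with cisplatin (adjusted p = 0.00246), more than any of the 10 apoptosis regulators above. VDAC3, a channel of the outer mitochondrial membrane, rose by 0.60 (adjusted p = 5.1e-05) and 0.55 (adjusted p = 9.7e-05). VDAC1 rose by 0.31 with osimertinib (adjusted p = 0.0177), a call lost without osimertinib replicate 1 (0.0751) or vehicle replicate 1 (0.0762). VDAC2, a channel that binds BAK, was at 0.097 with osimertinib (adjusted p = 0.63) and 0.088 with cisplatin (adjusted p = 0.662). The median of the 4 genes was 0.45 with osimertinib and 0.38 with cisplatin.

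Genes that act on these proteins went both ways. PIM1 and PIM3, kinases that can phosphorylate BAD, were 2 of the 5 tested genes of the BAD kinase list, and both rose with each drug, while AKT1, AKT2 and PIM2 were not called. Of all tested genes 16.9% rose with osimertinib and 16.5% with cisplatin. PIM1 was at 7.90, 7.74 and 7.76 with osimertinib, 7.29, 7.49 and 7.45 with cisplatin, and 7.17, 7.16 and 6.89 with vehicle, so that the 3 groups stood in separate steps. It rose by 0.72 with osimertinib (adjusted p = 4.5e-05) and by 0.33 with cisplatin (adjusted p = 0.0118, and 0.059 without vehicle replicate 3). Osimertinib minus cisplatin was 0.39 for PIM1 (adjusted p = 0.0408), a call that was lost in 13 of 18 alternatives, among them leaving out any single array of either drug (adjusted p = 0.0769 to 0.162), vehicle replicate 1 (0.0521) or vehicle replicate 2 (0.0613). PIM3 rose by 0.51 with osimertinib (adjusted p = 0.0021) and by 0.44 with cisplatin (adjusted p = 0.00577). Of 3 tested genes in the turnover list of MCL1, 1 fell with cisplatin and 0 with osimertinib, where 14.5% and 13.7% of all tested genes fell. SKP1, a subunit of ubiquitin ligases, fell by 0.55 with cisplatin (adjusted p = 0.0162). That call ended without cisplatin replicate 1 (0.0649), vehicle replicate 2 (0.0645) or vehicle replicate 3 (0.0665), and SKP1 was at -0.39 with osimertinib (adjusted p = 0.0715). GSK3B, which marks MCL1 for degradation, was at 0.008 and -0.058, neither called.

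Of 10 tested transcription factors known to act on BCL2 family genes, 2 rose and 1 fell with osimertinib, and 1 rose and 2 fell with cisplatin. These 3 of 10 in each comparison are near the 30.6% and 31.0% called over all tested genes. STAT5A, which drives BCL2L1 in blood cells, rose by 0.65 with osimertinib (adjusted p = 0.0148) and by 0.61 with cisplatin (adjusted p = 0.0207). The first call ended without osimertinib replicate 1 (0.0544), osimertinib replicate 2 (0.051) or vehicle replicate 2 (0.068), and the second without cisplatin replicate 2 (0.096) or vehicle replicate 2 (0.094), or with no level limit (0.0509). The platform annotation gives a pair of rows to FOXO3, an activator of BCL2L11, and they moved in opposite directions. Whether both rows measure FOXO3 was not tested. The brighter row fell by 0.50 with osimertinib (adjusted p = 0.00112) and by 0.47 with cisplatin (adjusted p = 0.00172), whereas the dimmer row rose by 0.54 (adjusted p = 0.0161) and 0.58 (adjusted p = 0.0116) in a fit of all named rows. FOXO1 rose by 0.32 with osimertinib (adjusted p = 0.0352), a call lost without osimertinib replicate 1 (0.109) or 2 (0.0939) and without vehicle replicate 2 (0.0811) or 3 (0.142), or with no level limit (0.0617). E2F1 fell by 0.35 with cisplatin (adjusted p = 0.0261), a call lost without vehicle replicate 1 (0.12), cisplatin replicate 1 (0.0646) or cisplatin replicate 3 (0.0629), or with quantile normalization (0.0592). RELA and NFKB1, the NF-kB subunits, were not called in either comparison.

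**Figure D4:**
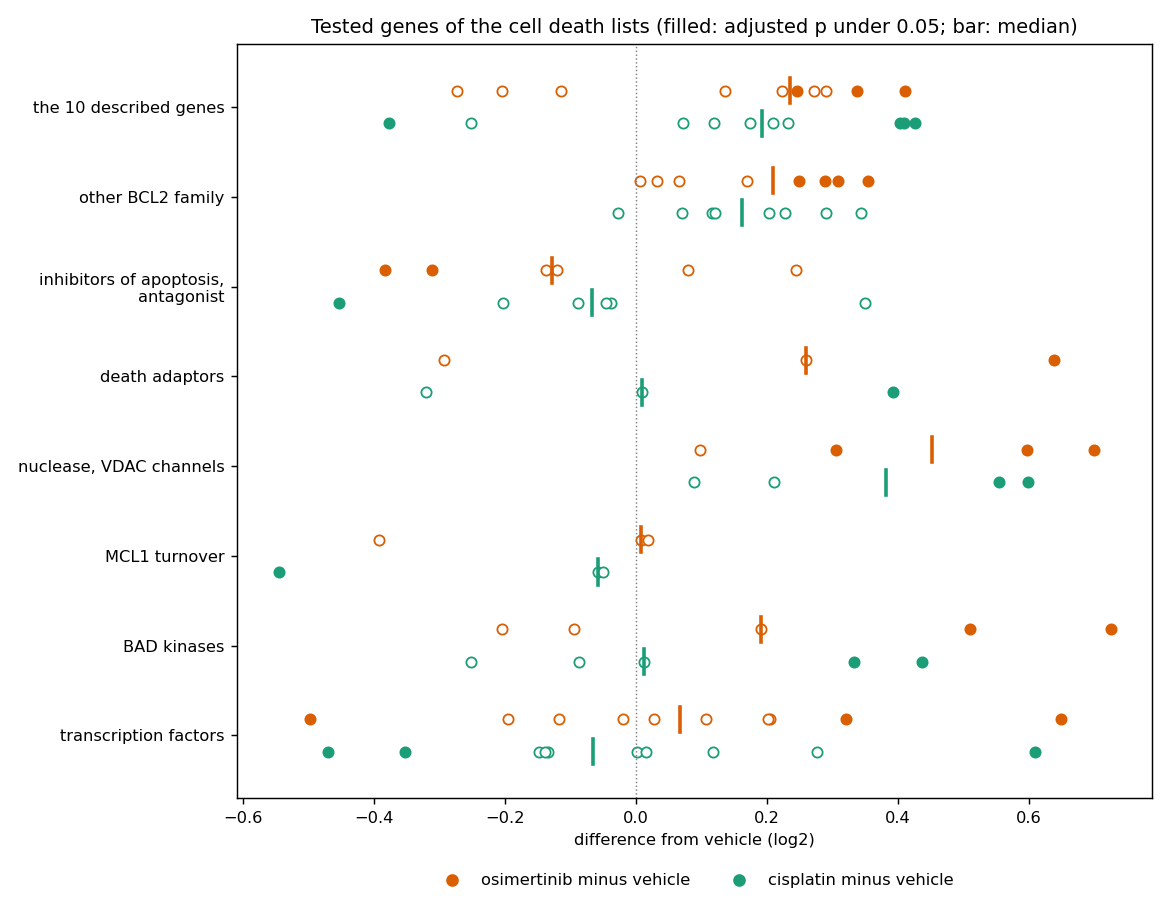
Log2 difference from vehicle of each tested gene in the lists of cell death genes, osimertinib above and cisplatin below within a list. Filled circles passed an adjusted p of 0.05, bars are medians; the nuclease and VDAC list has the highest medians, 0.45 and 0.38, and the list of inhibitors of apoptosis medians of -0.13 and -0.068.

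The pattern of MCL1, which had the smallest p of the 10 genes in the F test over the 3 groups (adjusted p = 0.000177, by limma), was most like those of CALCOCO1, SPRYD3, PRRT3, ESS2 and SUMF2 among the tested genes. Their Pearson correlation with MCL1 over the 9 arrays ran from 0.986 to 0.989, over points that share the 3 groups. CALCOCO1 encodes a receptor for autophagy of the endoplasmic reticulum, and SUMF2 a relative of the enzyme that matures sulfatases. CALCOCO1 was higher than vehicle by 0.41 with osimertinib and 0.49 with cisplatin, close to the 0.34 and 0.40 of MCL1. PRRT3 was higher by 1.07 and 1.48, with 1 equal value on its 3 osimertinib arrays, and a second, dim row of ESS2 was not called.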

How the data were processed

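Total RNA of the 9 samples was hybridised to 1 array each. The deposited table holds 1 value per probe set and array, made with Affymetrix Power Tools per the submitters' processing notes. How probes were summarized, and with which background correction and log base, is not given in the sources used here. Deposited values, from 0.65 to 13.17, were read as log2 levels from their range. At equal ranks the values of an array lay on average 0.0268 from the mean of the 9 arrays, so a shift of all genes in 1 direction would not be seen. The match was not full. A further quantile normalization moved the median difference of all tested genes from 0.037 to 0.109 with osimertinib and from 0.032 to 0.106 with cisplatin. No depth applies to arrays, and their number limits the precision.

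Of 53617 rows 16098 had 1 gene symbol in the platform annotation, and all of their Entrez IDs matched RefSeq. The brightest row stood for each of 779 genes with several. Genes at or above the median mean level were fitted with limma 3.58.1 in R 4.3.3 (all 9 arrays, mean-variance trend, robust fitting), without a replicate block, and tested on simulated data first. The 10 genes and the lists were chosen with earlier results of these data known. Beside the 10 genes, the text names with values those of each list called against vehicle in at least 1 comparison (up to 6) and the 5 genes most like the member with the smallest F test p; BAX, BBC3, VDAC2, GSK3B and the cell type markers were added after their values were seen. Alternatives covered normalization, centring, the level limit, the rows of a gene, the variance model, the arrays fitted, the replicate block and each array left out; those for the F test and the lists were added after seeing the data.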

Additional observations from a re-analysis of the deposited data

How the results depend on the processing

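The 7 called values of the 10 genes had 126 alternative values, of which 116 were called and 0 reversed. For the 10 genes the level limit, the choice of rows, the variance model and the replicate block left the difference itself unchanged. So did leaving out arrays of the group outside a comparison, and in all these settings only the adjusted p could change. Of 405 alternative values of the differences not called, 10 passed the threshold and 13 changed sign, all of them osimertinib minus cisplatin. BID changed sign with quantile normalization (-0.0099) and with median centring (-0.0065). The others left out 1 array, over which osimertinib minus cisplatin ran from -0.0444 to 0.0715 for BID, -0.0161 to 0.1692 for CFLAR, -0.0529 to 0.0575 for BCL2L11, -0.0464 to 0.1202 for APAF1, -0.0014 to 0.1573 for BAD and -0.1351 to 0.0404 for PMAIP1. The 36 called values of other named genes had 633 alternatives, 541 of them called, and 2 reversed. Both were of FOXO3 with the mean over the rows annotated to it (0.0218 with osimertinib and 0.0530 with cisplatin). BCL2 with cisplatin, not called, changed sign with quantile normalization (0.0584) and ran from -0.0649 to 0.0174 with 1 array left out.

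With quantile normalization 6 of the 10 genes were called with osimertinib, 6 higher and 0 lower, and 5 higher and 1 lower with cisplatin. Of all 7442 tested genes it called 2937 with osimertinib, 2005 higher and 932 lower, where the main fit called 2277. With cisplatin it called 2943, 1968 higher and 975 lower, where the main fit called 2308. The share of calls that were higher was 68.3% against 55.1% in the main fit with osimertinib, and 66.9% against 53.2% with cisplatin. The median of all genes was then 0.109 and 0.106. With 1 array left out, 1 to 4 of the 10 were called with osimertinib (1, MCL1, without osimertinib replicate 1), 3 to 4 with cisplatin, and 0 between the drugs. Over all genes these counts were 1828 to 2497, 1813 to 2269 and 54 to 147, and 1877 to 2501 for the F test. Between the drugs the 130 calls became 218 with quantile normalization, 239 with median centring, 76 with no level limit, 62 with all named rows and no level limit, 63 with no trend or robust fitting and 77 with only the 6 arrays; the cause was not tested. With the replicate number as a block, 2145, 2155 and 108 genes were called, among them 3, 4 and 0 of the 10. Deviations of same-numbered arrays correlated between -0.227 and 0.126. These values show no pairing by number, but with 3 arrays a group they cannot settle it.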

Other observations

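Equal values recurred across arrays. Of the 10 genes 7 had an identical value on 2 or more of the 9 arrays, also across groups, as did 3423 of the 7442 tested genes (46%). BCL2L1 had 1 value on 4 arrays, BAD, BCL2L11 and BCL2A1 on 3, and BID, CFLAR and APAF1 on 2. MCL1, BAK1 and PMAIP1 had 9 distinct values. For 207 tested genes a whole group of 3 arrays shared a single value, which leaves the spread of that group unknown.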
